A study of Mus musculus with 6 samples.

Results

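The liver and kidney libraries of a mouse degradome survey were compared with each other, window by window. Parallel analysis of RNA ends (PARE) had been carried out on 6 adult mouse tissues (genetic background BALB-c, polyadenylated RNA), and whole liver and whole kidney each gave 1 library. No treatment, allele or transgene is named in the labels, and neither sex nor the number of animals behind a library is given in the sources used here. A tag records the first bases of an RNA from its 5′ end, 20 or 21 of them in 99.7% of liver tags and 99.6% of kidney tags. The mouse genome (build mm9) was divided on each strand into windows of 2 kb, and a window was taken as shared when it held at least 10 tags in liver and at least 10 in kidney. This gave 616 shared windows of 37050 with any tag in liver or kidney, and of 79112 with any tag in the 6 libraries. Tags were found in 14404 windows in liver, in 32236 in kidney and in 9590 in both.

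PARE captures RNAs that carry a 5′ monophosphate and a poly(A) tail. Capped, intact messengers are not ligated, so the tags mark the 3′ parts of messengers that were cut by an endonuclease, decapped or partly degraded from the 5′ side by an exonuclease. A position that collects many tags can be a preferred cleavage site, a processing site such as the cut that Drosha makes beside a microRNA hairpin, or a point where decay pauses. The level of a window reflects both how much of an RNA a tissue makes and how much of it is present as such intermediates, and these cannot be told apart here. Likewise, fewer cells of a type and less RNA per cell cannot be told apart in whole tissue.

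The liver library held 78952 uniquely listed tags on 45662 distinct 5′ ends, and the kidney library 162270 tags on 108193 ends. Levels are unique tags scaled to a library total of 1000000 (CPM), so the minimum of 10 tags stands for 127 CPM in liver and 61.6 CPM in kidney. A count of 0, which allows 3 tags, limits a level to 38.0 CPM in liver and 18.5 CPM in kidney. The shared windows held 43810 liver tags, 55.5% of that library, and 45772 kidney tags, 28.2% of that library. A shared window held a median of 20 tags in liver and 30 in kidney, with maxima of 7022 and 12304. With 1 library per tissue, no p-value is given: the 95% interval of a ratio is the exact conditional binomial one, and that of a share is Clopper-Pearson's. These cover counting error only, since amplified reads are not independent molecules, and they compare the libraries rather than the tissues.

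The labels were checked against marker genes at their transcription starts, where tags could be matched to promoter sequence. Kap, the kidney androgen-regulated protein of the proximal tubule, had 1 liver tag and 989 kidney tags there. Miox, the inositol oxygenase of the proximal tubule, had 0 liver tags and 38 kidney tags, and Umod, the uromodulin of the loop of Henle, had 0 and 1. Apoc2, a lipoprotein component made by the liver, had 35 liver tags and 3 kidney tags, whereas Apoe had 0 and 1 at its start. Of the 8 hepatocyte markers listed, Cyp2e1 was the one matched at its start, with 1 tag in each library. The kidney markers followed the kidney label, whereas the listed hepatocyte markers gave no usable check of the liver label.

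Several 5′ ends were the strongest of their window in both libraries, and they are shown because they carried many tags in both. The capital marks the base at the 5′ end, and the coordinates are those of the tag in mm9.
chr10:80808851-80808871, minus strand: Agccccttcccctgcgccttt
chr19:31161459-31161478, plus strand: Aatttcggttgggaaaaaaa
chr11:62416576-62416595, plus strand: Tgcaatgatgatgaaactag
chr17:29469067-29469087, minus strand: Atctagtcctcccctcgtggt
chr5:90905579-90905599, plus strand: Tttgacttcttgtctctgtgc

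In other windows the strongest end differed, by 1, 2, 30 and 80 nt in the examples that follow, which are among those with the most tags at the weaker of the strongest ends.
chr8:125626933-125626953, plus strand, liver: Tggaatgatgacattctccgg
chr8:125626932-125626951, plus strand, kidney: Gtggaatgatgacattctcc
chr2:122090910-122090929, plus strand, liver: Taactgatgtaacttgggct
chr2:122090908-122090927, plus strand, kidney: Agtaactgatgtaacttggg
chr7:20281711-20281731, minus strand, downstream of Apoe, liver: Tgagtatccttctcctgtcct
chr7:20281682-20281701, minus strand, downstream of Apoe, kidney: Tccatatccagccaggtggc
chr2:73746571-73746591, minus strand, downstream of Atp5g3, liver: Tcttgctgtgactccgaagac
chr2:73746652-73746671, minus strand, downstream of Atp5g3, kidney: Cttgatcttgtttgccatgt

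Some of the strongest ends in windows far higher in liver carried the poly(A) signal hexamer AATAAA, which directs 3′ end formation of most messengers and is in capitals here. The tags of the strongest kidney ends in the same windows carried it as well, and the liver tags are shown. Windows not called higher in liver could have it too, as at the strongest end downstream of Ndufb10, the same in both libraries.
chr9:103111213-103111232, minus strand: acaaAATAAAaacgactgct
chr7:20274833-20274853, minus strand: AATAAAaaacgtgtagaaggc
chr1:173156482-173156501, plus strand: cAATAAAtgcggaaggagtt

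Tag levels in the shared windows differed widely between the libraries. The ratio of liver to kidney CPM had a median of 1.37, quartiles of 0.850 and 2.65, and a range from 0.0210 to 48.3. A window was called higher in a library when its level was at least 2-fold higher and the interval of the ratio excluded 1. By this measure 192 windows were higher in liver (31.2%), 44 were higher in kidney (7.14%) and 380 were neither. Over the 1645 windows whose liver and kidney tags together reached 20, 23.1% were higher in liver and 31.3% in kidney. The order of the shares was thus the opposite in that wider set, which does not require 10 tags in each library. When the ratios were centred on their median, a shift of 0.45 on the log2 scale, 144 windows were higher in liver and 91 in kidney. The levels of the libraries correlated weakly over the 616 windows, with Spearman's rho of 0.314, a description of windows that share library and depth.

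Around the minimum count, the 51 windows with exactly 10 liver tags had a median ratio of 0.934, and the 53 windows with 9 liver tags and at least 10 in kidney had 1.09. The 24 windows with exactly 10 kidney tags had a median ratio of 3.39, and the 25 with 9 kidney tags had 3.20. Counts of 9 and 10 differ by 1 tag, so these medians were bound to be close on each side. They do not show how the minimum shapes the ratios. The minimum of 10 tags stands for 127 CPM in liver and 61.6 CPM in kidney.

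**Figure D1:**
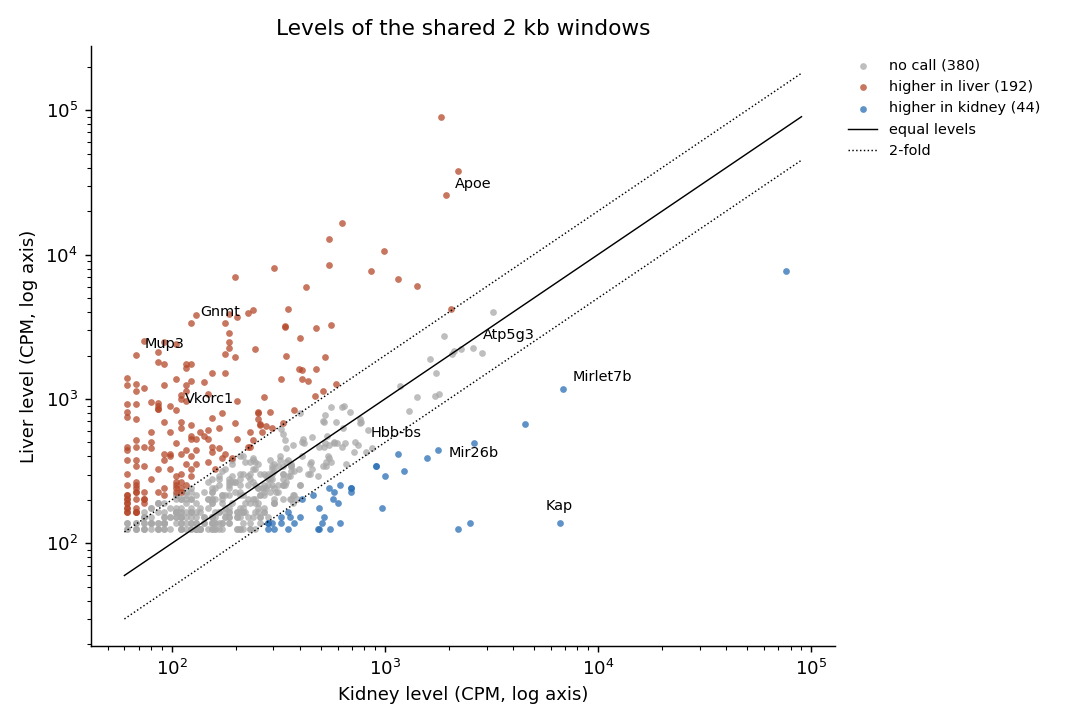
Liver level against kidney level of the 616 shared windows, in CPM on log axes, 1 point per window, coloured by whether the window was called at least 2-fold higher in liver, in kidney or in neither; the solid line marks equal levels and the dotted lines 2-fold. The 192 windows higher in liver reach a ratio of 48.3, and the Kap window lies farthest on the kidney side, at a ratio of 0.0210.

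The highest level in liver lay on the plus strand of chromosome 5. The window from 90904001 to 90906000 held 7022 liver tags (88940.1 CPM) and 299 kidney tags (1843 CPM), a ratio of 48.3 (interval 43.0 to 54.4). Its strongest end, at 90905579, was the same in both libraries, with 2478 liver tags and 80 kidney tags. Of the 76 distinct ends in kidney, 75 were also found in liver, which had 162. The liver therefore had nearly every position that kidney had in this window, at far more tags per position. The ratio of distinct ends, each count scaled to all distinct ends of its library rather than to its tags, was 5.05.

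That window closed a run of 5 adjoining shared windows, from 90896001 to 90906000, the longest of 37 such runs. The 5 windows held 249, 253, 832, 607 and 7022 liver tags and 55, 55, 161, 139 and 299 kidney tags. Their ratios were 9.30, 9.45, 10.6, 8.98 and 48.3, so the first 4 lay close together and the window at the 3′ end stood apart, its interval overlapping none of theirs. Ratios of distinct ends did not follow this order, at 8.10, 6.50, 6.46, 4.15 and 5.05. Ratio intervals of adjoining windows lay apart in 11 of the 37 runs, and the median spread between the highest and lowest ratio of a run was 2.0-fold.

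Apoe, the apolipoprotein E that the liver secretes on lipoproteins, lay upstream of 2 windows higher in liver. Genes were named by tags that matched the sequence around a transcription start or a microRNA hairpin up to 5 kb upstream on the same strand, so another gene may begin in between. On chromosome 7, minus strand, the window from 20280001 to 20282000, a mean of 2128 nt from the Apoe start, held 2041 liver tags and 315 kidney tags, a ratio of 13.3 (11.8 to 15.0). The window from 20282001 to 20284000 held 76 and 19 tags, a ratio of 8.22 (4.92 to 14.4). Both windows were thus higher in liver, and in the larger 96 of the 109 kidney ends were also liver ends.

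Gnmt, the glycine N-methyltransferase that consumes S-adenosylmethionine in hepatocytes, had a window with 265 liver tags and 20 kidney tags, a ratio of 27.2 (17.3 to 45.3). Its strongest end, at 46862679 on chromosome 17, was the same in both, with 138 and 4 tags. Mup3, a major urinary protein, had 159 liver tags and 11 kidney tags, a ratio of 29.7 (16.2 to 60.7). The Mup genes are near-identical copies, so the assignment to Mup3 is uncertain. These are genes of secretion and methyl-group metabolism known for high hepatic expression.

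Vkorc1, the vitamin K epoxide reductase needed for clotting factor synthesis, had 66 liver tags and 17 kidney tags, a ratio of 7.98 (4.63 to 14.5). Inmt, an indolethylamine N-methyltransferase, had 77 and 33 tags, a ratio of 4.80 (3.15 to 7.45). Ddt, the D-dopachrome tautomerase, had 33 and 16 tags, a ratio of 4.24 (2.27 to 8.25). These 3 windows were called higher in liver with smaller ratios than those near Apoe, Gnmt and Mup3.

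Windows without a matched start were also among those most strongly higher in liver. On chromosome 7, minus strand, the window from 20274001 held 555 liver tags and 32 kidney tags, a ratio of 35.6 (25.0 to 52.6). On the same strand the window from 112740001 held 200 and 12 tags, a ratio of 34.3 (19.2 to 67.4). On chromosome 1, plus strand, the window from 173156001 held 633 and 49 tags, a ratio of 26.6 (19.8 to 36.3). The first and the last of these had AATAAA in the tags of their strongest ends in both libraries. The liver tags are shown among the sequences.

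Further windows with many tags were higher in liver as well. On chromosome 9, minus strand, the window from 103110001 held 1315 liver tags and 102 kidney tags, a ratio of 26.5 (21.7 to 32.7). On chromosome 16, plus strand, the window from 22898001 held 1014 and 89 tags, a ratio of 23.4 (18.8 to 29.4). On chromosome 18, plus strand, the window from 65408001 held 2994 and 356 tags, a ratio of 17.3 (15.5 to 19.3). The last was dominated by 1 end, 65408578, with 2796 liver tags and 340 kidney tags, whereas the chromosome 9 and 16 windows were spread over 113 and 190 liver ends.

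The most extreme window on the kidney side lay downstream of Kap. On chromosome 6, minus strand, the window from 133798001 to 133800000 held 11 liver tags (139 CPM) and 1077 kidney tags (6637 CPM), a ratio of 0.0210 (0.0104 to 0.0377), and the Kap start lay 3712 nt upstream of its tags. All 10 distinct liver ends in this window were also among the 84 kidney ends. The strongest kidney end, at 133799936, had 139 tags, and the strongest liver end, at 133799929, had 2.

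The window with the most kidney tags was nearly a single position. On chromosome 1, minus strand, the window from 24618001 held 606 liver tags and 12304 kidney tags, a ratio of 0.101 (0.0931 to 0.110). The end at 24619958 alone held 602 liver tags and 12279 kidney tags, which is 0.762% of the liver library and 7.57% of the kidney library. At that base 61 distinct tag sequences were listed in liver and 103 in kidney, and the most frequent of them had 98 and 2006 tags. What these sequences are was not determined, so it is not known whether the tags mark 1 RNA end. This one base weighs on totals over tags, which are therefore also given without its window.

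Other windows higher in kidney were led by few positions or by many. On chromosome 1, minus strand, the window from 79918001 held 11 liver tags and 409 kidney tags, a ratio of 0.0553 (0.0274 to 0.1000), with 8 and 360 tags at the end 79919176. On chromosome 17, minus strand, the window from 29468001 held 53 and 734 tags, a ratio of 0.148 (0.110 to 0.196), with 51 and 727 tags at the end 29469087. On chromosome 15, minus strand, the window from 66760001 held 10 and 356 tags, a ratio of 0.0577 (0.0274 to 0.107). The first and second were dominated by an end common to both libraries, and the third was spread over 198 kidney ends with at most 24 tags at any.

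Dcxr, an L-xylulose reductase, had 19 liver tags and 112 kidney tags, a ratio of 0.349 (0.202 to 0.570). Its ratio of distinct ends, scaled to all distinct ends of each library, was 0.592. Among the other windows called higher in kidney were those of 3 genes of oxidative phosphorylation. The mitochondrial respiratory chain and ATP synthase, abundant in tubule cells, were represented by 9 genes in 10 windows, a group put together after the gene names had been seen. None of the 10 windows was higher in liver and 3 were higher in kidney, against 31.2% and 7.14% of all 616 shared windows and 7 and 7 of the 52 near a gene start. The median ratio was 0.779. It was 1.37 over all shared windows, but most of those lay near no matched start, so the sets are not alike.

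Ndufa4, a subunit associated with cytochrome c oxidase, had 15 liver tags and 98 kidney tags, a ratio of 0.315 (0.170 to 0.545). Atp5e, the epsilon subunit of ATP synthase, had 16 and 93 tags in the window nearer its start, a ratio of 0.354 (0.194 to 0.605). Atp5d, the delta subunit, had 16 and 66 tags, a ratio of 0.498 (0.269 to 0.870). These 3 were the ones called. Their ratios of distinct ends, scaled to all distinct ends of each library, were 0.661, 0.754 and 0.570. With that scaling they fell short of the 2-fold limit. The second Atp5e window, with 18 and 44 tags, had a ratio of 0.841 (0.457 to 1.49). Cox6a1, a cytochrome c oxidase subunit, had 34 and 132 tags, a ratio of 0.529 (0.352 to 0.777), which missed the 2-fold limit. The highest ratio of the group was that of Atp5k, at 1.25 (0.641 to 2.36).

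The blood markers were at similar levels. Hbb-bs, an adult beta globin, had 57 liver tags and 124 kidney tags, a ratio of 0.945 (0.678 to 1.30). Hbb-bt, its near-identical neighbour, had 15 and 21 tags, a ratio of 1.47 (0.704 to 2.99). Neither was called. Tags listed at both copies were left out, so these counts rest on tags listed at 1 location.

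Of the 616 shared windows, 59 had a matched start or hairpin upstream, which named 55 genes. In the 52 windows near a gene start, 7 were higher in liver and 7 in kidney, 13.5% each, against 31.2% and 7.14% of all shared windows. Of the gene lists used, apolipoproteins, kidney tubule genes, gluconeogenesis and amino acid metabolism, and mitochondrial energy metabolism each had 1 gene matched in a shared window (Apoe, Kap, Gnmt and Cox6a1), and the blood markers had 2. The lists of plasma proteins, detoxification and peroxisome genes, translation, iron storage, cytoskeleton and housekeeping genes, and the markers of hepatocytes, leukocytes, endothelium and stroma had 0. These zeros count sequence matches near a start and say nothing about the level of those genes.

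MicroRNA hairpins gave tags at exact processing positions. A primary microRNA transcript is cut by Drosha at the base of the hairpin, and the downstream remnant carries a 5′ monophosphate and the poly(A) tail. Tags at the hairpins were placed on RefSeq hairpins (GRCm38.p6), and 7 shared windows had one within reach. The mature microRNAs whose edges coincide with the tags follow, with the seed (bases 2 to 8) in capitals. No 2 of them share a seed.
let-7b-5p: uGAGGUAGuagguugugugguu
miR-26b-5p: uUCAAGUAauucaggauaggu
miR-126a-3p: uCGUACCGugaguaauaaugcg
miR-142a-3p: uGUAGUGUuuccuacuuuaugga

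Tags beginning at the first base of a mature 5p arm were higher in kidney. The let-7b window, chromosome 15, plus strand, from 85536001, held 93 liver tags and 1116 kidney tags, a ratio of 0.171 (0.137 to 0.212). Its strongest end in both libraries, at 85537755, was hairpin base 7, the first base of let-7b-5p, with 56 and 957 tags. Another end, at 85537830, was hairpin base 82, the last base of let-7b-3p, with 35 and 151 tags. The window of Mir26b held 35 and 287 tags, a ratio of 0.251 (0.171 to 0.357), and all liver tags and 286 of the kidney tags lay at hairpin base 15, the first base of miR-26b-5p.

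Tags just past a mature 3p arm were found at 2 further hairpins. At Mir126a, whose microRNA is enriched in endothelium, the end 26446944 was hairpin base 68, the base after the last of miR-126a-3p, with 6 liver tags and 19 kidney tags. Its window held 11 and 46 tags, a ratio of 0.491 (0.230 to 0.963), called higher in kidney. At Mir142, whose microRNA marks blood cells, the end 87570428 was hairpin base 63, the base after the last of miR-142a-3p, with 9 and 15 tags. Its window held 10 and 20 tags, a ratio of 1.03 (0.430 to 2.30). The position relative to the hairpin was the same base in both libraries at these 4 hairpins, while 3 of their windows were called higher in kidney. The windows of Mir1982 and Mir503 had no tags at the edge of a mature arm among their strongest ends, and no mature arm was listed for Gm24148. That of Mir1982 was higher in liver, with 30 and 10 tags and a ratio of 6.17 (2.93 to 14.1). That of Mir503 was higher in kidney, with 12 and 58 tags and a ratio of 0.425 (0.208 to 0.801). That of Gm24148, with 13 and 27 tags, had a ratio of 0.990 (0.469 to 1.98). The tags in the Mir1982, Mir503 and Gm24148 windows lay a mean of 401, 757 and 1520 nt downstream of the matched hairpin tags. Their ratios are therefore those of the windows, not of the hairpins. The tags past the arms were the following, with the capital at the 5′ end.
chr2:26446944-26446964, plus strand, past miR-126a-3p: Cggtcagcagcccagcgccag
chr11:87570428-87570448, plus strand, past miR-142a-3p: Tgagtgcactgtgggcttcgg
chr15:85537830-85537850, plus strand, at the last base of let-7b-3p: Ctgaggcgcccagggacacag

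The libraries shared many exact 5′ ends. In the shared windows there were 15028 distinct ends in liver and 16186 in kidney, and 3755 were common to both. These were 25.0% of liver ends (24.3 to 25.7) and 23.2% of kidney ends (22.6 to 23.9). The common ends held 58.5% of liver tags and 62.5% of kidney tags. Without the chromosome 1 window with the most kidney tags, they held 57.9% of liver tags and 48.7% of kidney tags, so the order of the libraries turned. Within a window the median share was 22.2% of liver ends and 18.2% of kidney ends, and 42 windows had no common end.

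Ends with more tags were more often found in the other library. Of liver ends with 1 tag, 18.2% were also kidney ends, and of those with over 10 tags, 77.9% were (73.5 to 81.8). Of kidney ends with 1 tag, 17.1% were also liver ends, and of those with over 10 tags, 78.7% were (72.2 to 84.3). The classes between these lay in order in both libraries, at 28.9, 42.4 and 56.7% in liver and 32.6, 46.3 and 65.8% in kidney.

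**Figure D2:**
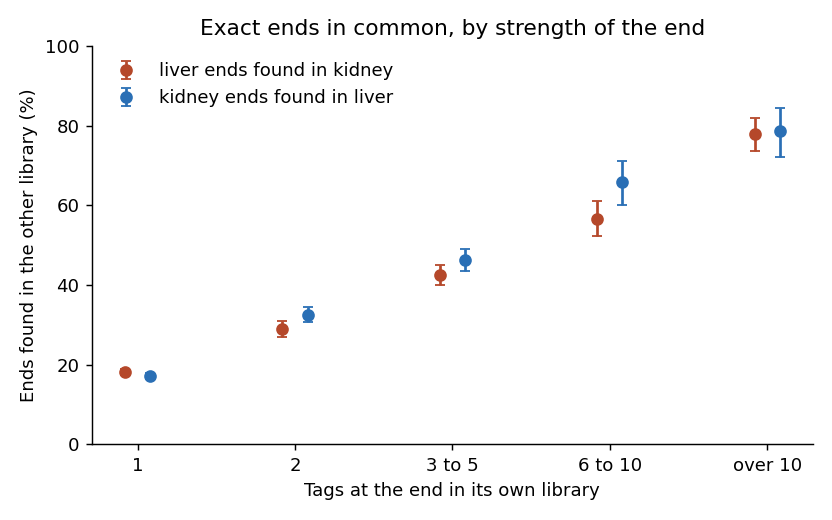
Percent of distinct 5′ ends found in the other library (vertical axis) by the number of tags at the end (horizontal axis), for liver and kidney ends in the 616 shared windows, with exact Clopper-Pearson 95% intervals. The share climbs from 18.2% to 77.9% for liver ends and from 17.1% to 78.7% for kidney ends.

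The share depends on depth as well as on position. In windows higher in liver, 20.2% of liver ends and 44.9% of kidney ends were common, and in windows higher in kidney the shares were 45.1% and 10.05%. In windows with no level call they were 31.1% and 17.1%. The library with fewer tags in a window thus had the larger share of its ends in common. Thinning the kidney counts to the depth of the liver library left 16.2% of liver ends and 48.7% of liver tags at common ends.

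Liver and kidney ends also lay near each other more often than at larger distances. Pairs of distinct ends at the same base numbered 3755. At 1 nt apart there were a mean of 3006 pairs per direction, at 5 nt 1993.5, and at 11 to 20 nt 1400.2 per nt. The profile was not even on both sides. At 41 to 50 nt it held 1267.1 pairs per nt with the liver end toward the 3′ side and 1033.7 with the liver end toward the 5′ side. Counting ends within 1 nt as common raised the shares to 42.7% of liver ends and 38.2% of kidney ends.

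**Figure D3:**
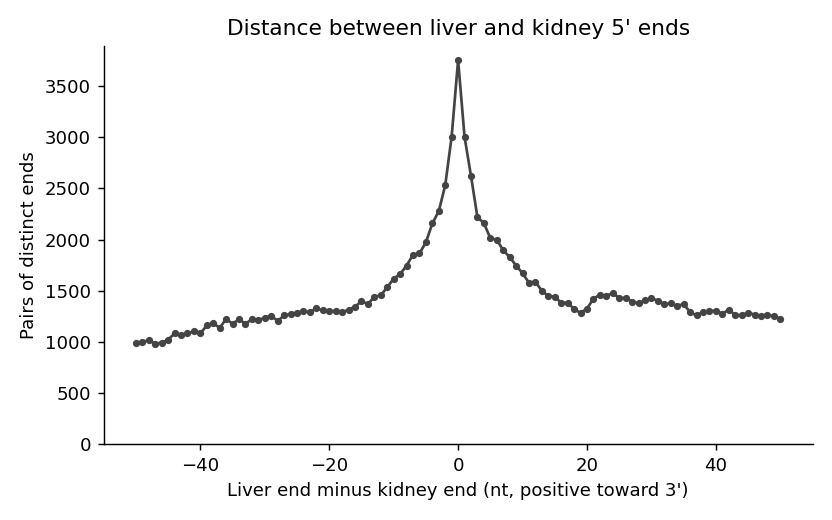
Number of pairs of a distinct liver end and a distinct kidney end (vertical axis) by their distance in nt along the strand (horizontal axis, positive with the liver end toward the 3′ side), in the 616 shared windows. The peak of 3755 pairs is at the same base, and the flank on the 3′ side lies above that on the 5′ side at 41 to 50 nt.

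The strongest end was the same base in 181 of the 616 windows, or 29.4% (25.8 to 33.2). A strongest end with few tags is a weak basis, and 26 of the 96 windows in which it held 1 tag in a library were counted as the same (27.1%), ties included. Where the strongest end held at least 5 tags in both libraries, it was the same in 83 of 146 windows (56.8%). With at least 10 tags it was the same in 45 of 58 (77.6%), and with at least 20 tags in 29 of 33 (87.9%, interval 71.8 to 96.6). Where neither library had a tie, it was the same in 106 of 296 windows (35.8%).

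The strongest common ends often held most of their window. On chromosome 10, minus strand, the window from 80808001 held 316 liver tags, all at the end 80808871, and 521 kidney tags, 517 of them at that end, with a ratio of 1.25 (1.08 to 1.44). On chromosome 19, plus strand, the end 31161459 held 445 of 476 liver tags and 199 of 229 kidney tags, in a window with a ratio of 4.27 (3.64 to 5.02). On chromosome 11, plus strand, the end 62416576 near the start of 2410006H16Rik held 179 of 215 liver tags and 244 of 307 kidney tags, with a ratio of 1.44 (1.20 to 1.72). In these windows the libraries shared the dominant position, whether or not the window was called.

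Where the strongest ends differed, more windows had them over 100 nt apart than within 10 nt. Of the 435 such windows, 31 had them within 1 nt, 95 within 10 nt and 181 more than 100 nt apart, with the liver end toward the 3′ side by a median of 24 nt. The liver end lay toward the 3′ side in 290 windows and toward the 5′ side in 145. Among the 63 with at least 5 tags at both ends, it lay toward the 3′ side in 45 and toward the 5′ side in 18, with a median of 11 nt. Where ends tied for strongest in a library, the one of lowest coordinate was taken for these distances. Only 296 of the 616 windows had no tie, so many distances and directions rest on that choice.

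On chromosome 8, plus strand, the window from 125626001 had 2 ends, neighbouring bases used in both libraries: 125626933 was the stronger in liver, with 44 tags, and 125626932 the stronger in kidney, with 107 tags. On chromosome 2, plus strand, the window from 122090001 had 23 liver tags at 122090910 and 25 kidney tags at 122090908. On chromosome 17, plus strand, the window from 39982001 had 40 liver tags at 39983531 and 76 kidney tags at 39983433. The window downstream of Apoe had 106 liver tags at 20281731 and 30 kidney tags at 20281701. Only the last of these 4 windows was called different in level, and its strongest liver end lay on the 5′ side of the kidney end.

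Liver tags lay farther toward the 3′ side of most windows. The shift is the tag-weighted mean position in liver minus that in kidney, in nt along the strand, so a positive value means that liver tags lay closer to the 3′ end. Its median over the 616 windows was 47.4 nt, with quartiles of 3.92 and 114 and a range from -287 to 637. The size depends on the window, with a median of 25.5 nt in windows of 1 kb and 77.7 nt in windows of 4 kb. The shift was above 0 in 494 windows (80.2%) and below 0 in 121. A shift was called when it was at least 100 nt and at least 2 of its standard errors, which reflect the spread of distinct ends. By this measure 101 windows were shifted to the 3′ side in liver (16.4%) and 1 to the 5′ side (0.162%). In windows of 1 kb the calls were 63 and 0. In 10 windows a library had a single end, which gives no standard error. Without regard to error, 172 windows had shifts of at least 100 nt to the 3′ side and 18 to the 5′ side.

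**Figure D4:**
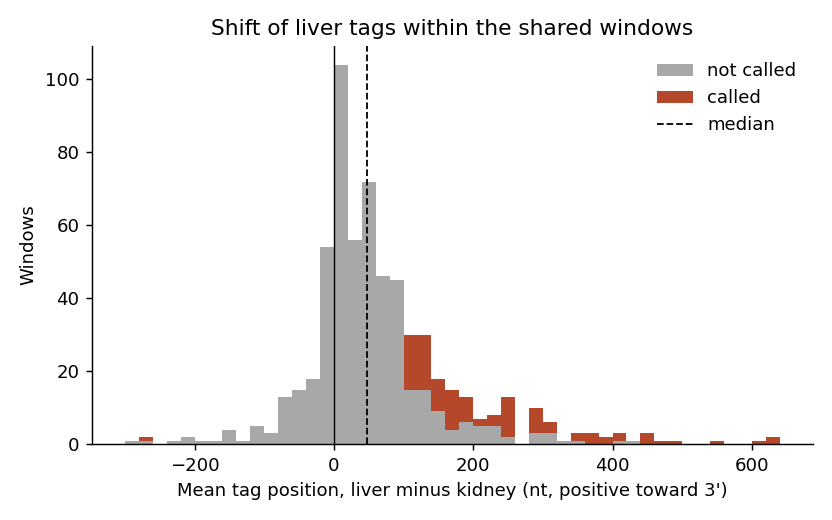
Shift of mean tag position, liver minus kidney, in nt along the strand for the 616 shared windows, positive toward the 3′ side (horizontal axis), against the number of windows; red bars are called shifts, the solid line is 0 and the dashed line the median. The distribution lies mostly above 0, with a median of 47.4 nt and 494 windows above 0.

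The direction did not depend on the strand, and it was seen in windows of each level class. The median shift was 49.4 nt on the plus strand and 46.3 nt on the minus strand, with 48 and 53 calls to the 3′ side. It was 50.9 nt in windows with no level call, which held 76 of the 101 calls, 42.5 nt in windows higher in liver, with 21, and 16.8 nt in windows higher in kidney, with 4. The ratio and the shift had a Spearman's rho of -0.0091, a description over windows of the same libraries. That value covers a steady rise or fall only, and the median shift was lower in both called classes than in windows with no level call. The shift was smaller where positions were better measured or shared. In the 61 windows with at least 50 tags in both libraries the median was 24.0 nt. In windows with the same strongest end it was 29.4 nt, and in those with different strongest ends 51.7 nt.

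The largest shifts were in windows with few tags. On chromosome 16, minus strand, the window from 87484001 held 15 liver tags and 14 kidney tags, with a shift of 637 nt (standard error 242). On chromosome 11, minus strand, the window from 69470001 held 14 and 17 tags, with a shift of 622 nt (134). On chromosome 12, minus strand, the window from 103632001 held 10 and 49 tags, with a shift of 552 nt (127), and on chromosome 19, plus strand, that from 3384001 held 13 and 27 tags, with a shift of 494 nt (99.6). The only call to the 5′ side was on chromosome 17, minus strand, from 57344001, with 64 and 10 tags and a shift of -261 nt (128). The windows listed here rest on 10 to 14 tags in the smaller library. The Atp5k window, whose shift of 614 nt is also among the largest, held 17 liver tags and 28 kidney tags.

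In the 52 windows near a matched gene start, the shift was above 0 in 42 (80.8%, against 80.2% of all shared windows), with a median of 44.7 nt against 47.4, and 5 were called to the 3′ side (9.62%, against 16.4%). In the respiratory chain and ATP synthase group it was above 0 in 9 of 10 windows, a share near that of all shared windows (80.2%), with a median of 102.9 nt. Atp5k, a subunit of the membrane part of ATP synthase, had a shift of 614 nt (standard error 105) from 17 liver tags and 28 kidney tags. Ndufb10, a complex I subunit, had 176 nt (73.8) from 24 and 44 tags. Outside the group, Id2, an inhibitor of DNA binding by helix-loop-helix factors, had 248 nt (55.0), and Rps21, a ribosomal protein, had 289 nt (140).

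Atp5g3, which encodes the c subunit of the ATP synthase ring, had the most tags of the called windows near a start. Its window, chromosome 2, minus strand, from 73746001, held 178 liver tags on 72 ends and 422 kidney tags on 158 ends, at a similar level (ratio 0.867, interval 0.723 to 1.04). The strongest liver end, at 73746591, had 32 tags, and the strongest kidney end, at 73746671, had 17 and lay 80 nt to the 5′ side. The shift was 164 nt (standard error 40.9). A total of 45 ends were common, and they held 135 of the 178 liver tags and 200 of the 422 kidney tags. The window on chromosome 2 from 122090001, with 169 and 341 tags and a ratio of 1.02 (0.842 to 1.23), had a shift of 134 nt (38.1). In both windows the level was similar and the position was not.

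**Figure D5:**
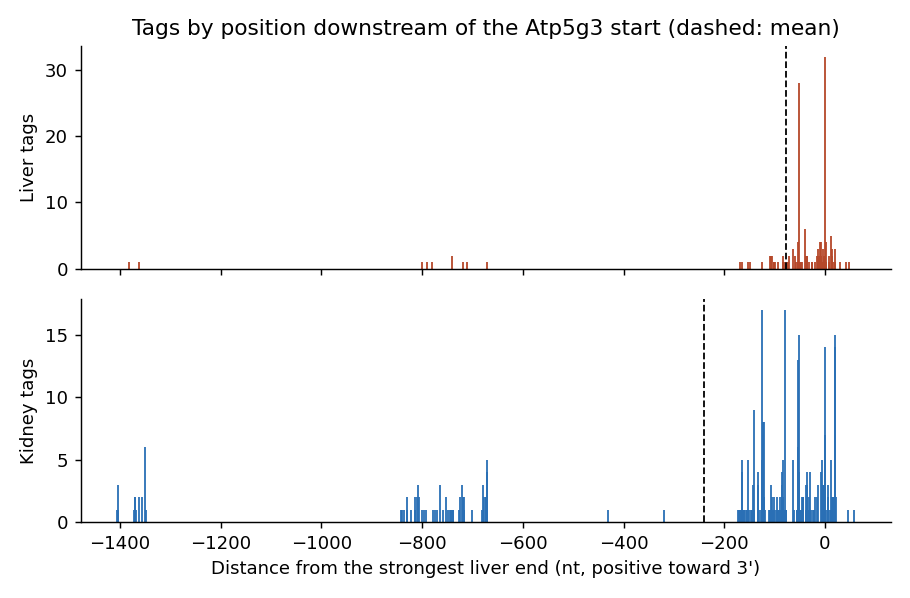
Tags at each 5′ end in the window downstream of the Atp5g3 start, by distance in nt from the strongest liver end along the strand, for liver (178 tags) and kidney (422 tags), on separate vertical axes. The strongest liver end holds 32 tags at 0, and the strongest kidney end holds 17 tags 80 nt to the 5′ side.

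The libraries also differed in the bases at the ends that they did not share. Ends found in liver alone began with T in 40.0% of cases, against 29.8% of ends found in kidney alone, and with C in 22.5% against 31.5%. Common ends were like the liver ends, with 39.9% T and 23.4% C. G was scarce as a first base in all 3 groups, at 8.31% of common ends, 10.5% of liver ends and 11.7% of kidney ends, against 27.2, 24.0 and 27.8% at bases 6 to 20 of the same tags. At bases 6 to 20 the groups alone differed less in T, at 26.8% in liver and 25.5% in kidney. In windows with no level call the first base was T in 44.0% of ends in liver alone and 29.8% in kidney alone, so the difference was at least as large there.

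The poly(A) signal hexamer AATAAA, searched on the RNA strand within the tags, followed the same split. It was present in 8.48% of common ends (7.61 to 9.42), 7.44% of ends in liver alone (6.96 to 7.94) and 2.40% of ends in kidney alone (2.14 to 2.69). In the whole libraries it was present at 7.34% of liver ends and 2.33% of kidney ends. Its reverse complement, TTTATT, was present at 0.320, 0.409 and 0.443% of the 3 groups. In windows with no level call TTTATT was present at 0.718% of ends in liver alone and 0.351% in kidney alone, and in the whole libraries at 0.575 and 0.396%, so it too was higher in liver there, at far lower shares. The mean GC content of the tags was 46.7, 44.9 and 49.9%. In windows with no level call, the hexamer was present at 9.31% of ends in liver alone and 2.37% of ends in kidney alone. An AATAAA lies near the 3′ end of most messengers, and its higher share in liver stood beside the shift of liver tags to the 3′ side.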

How the data were processed

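Tag counts were used as the authors deposited them, 1 line per tag sequence with its mm9 location, strand and count in the entry's name. The deposited score is a display density and was not used. Tags were aligned with Bowtie to mm9, per the submitters' processing notes. For its version and mismatch limit, and for filters on tags, the record is silent: not given in the sources used here. Reads listed at 2 locations within a library were left out, and 5′ ends were taken from the first base on the plus strand and the last on the minus strand. Levels are CPM of unique tags. The members, gene lists and markers were chosen with earlier results of these data known. With 1 library per tissue no test between tissues and no p-value is given.

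Windows were named by rule: the 10 with the most tags, the 5 with the largest bound of the ratio each way, the 5 with the most tags at a same and at a different strongest end, and the 5 largest called shifts each way. Gene names come from whole tags of 20 to 22 nt of any of the 6 libraries that match exactly the RefSeq start regions or hairpins (GRCm38.p6), with 984 starts and 130 hairpins matched. This way of naming was chosen after the files had been seen, in place of a match to transcripts, which were not used here. RefSeq coordinates were not used. Genes named near windows outside the rule were chosen after their values were seen. Alternatives varied the minimum count, window size and offset, 2-location reads, depth, scaling and the definition of a common or strongest end. The number of columns taken from other series was 0. The scripts, in Python 3.11.15 with pandas 2.3.3, NumPy 2.4.6, SciPy 1.17.1 and matplotlib 3.10.9, were tested on simulated data.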

Additional observations from a re-analysis of the deposited data

Results flagged for a closer look

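Reads listed at 2 locations were left out of the comparisons, and they held more tags than the 3 that a count of 0 allows. They held 7444 tags in liver, 8.62% of the tags listed, and 17458 tags in kidney, 9.71%. The shares of the libraries were close. The effect of keeping them is given with the dependence on processing.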

How the results depend on the processing

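No paired analysis was possible because each tissue has 1 library, and for the same reason no library could be left out. Depth limits most windows, whose smaller library holds few tags. Of the recomputed values 53 moved and 40 stayed close to those reported. The median shift stayed above 0 in each alternative that recomputed it. The share of tags at common ends, higher in kidney as reported, was higher in liver with at least 5 tags, in 4 kb windows, within 1 nt and without the window with the most kidney tags. The share of ends, higher in liver as reported, was higher in kidney with at least 20 tags. With at least 5 tags in both libraries there were 1591 shared windows, 332 higher in liver and 133 in kidney, 20.7% of liver ends and 16.5% of kidney ends were common with 51.3% of liver tags and 46.1% of kidney tags, and 228 windows were shifted to the 3′ side and 10 to the 5′ side. With at least 20 tags there were 247 windows, 93 and 12 by level, 29.7 and 30.1% of ends, 66.4 and 74.4% of tags, the same strongest end in 36.8%, and 39 and 0 shifts. In windows of 1 kb, 26.8 and 26.2% of ends and 60.9 and 66.7% of tags were common, the median shift was 25.5 nt, and 63 and 0 windows were called shifted. In windows of 4 kb these were 23.5 and 20.4%, 56.3 and 52.3%, and 77.7 nt, with 2 shifts to the 5′ side. With the windows moved by 1 kb, 61.4% of kidney tags were common. With 2-location reads kept, 25.7% of liver ends and 60.8% of kidney tags were. Counting distinct ends in place of tags gave 11 windows higher in kidney and 3 shifts to the 5′ side. Thinning kidney to the liver depth gave 16.2% of liver ends and 48.7% of liver tags. Centring the ratios gave 91 windows higher in kidney. Counting ends within 1 nt as common gave 42.7 and 38.2% of ends, 71.5 and 71.2% of tags and the same strongest end in 38.8% of windows. With exact bases, the strongest end was the same in 56.8% of windows with at least 5 tags at it and in 35.8% of those without ties. Alternatives chosen after seeing the data were a minimum of 50 tags (median shift 24.0 nt, 9 and 0 shifts), leaving out the window with the most kidney tags (57.9% of liver tags and 48.7% of kidney tags at common ends) and windows with no level call (0 shifts to the 5′ side).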

Other observations

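The other tissues allow the position of tags in the shared windows to be set beside that in liver and kidney, where the third library also had 10 tags or more. Over 573 windows with lung, the median shift of liver from lung was 1.42 nt and that of kidney from lung was -49.6 nt, so kidney tags lay toward the 5′ side of lung and liver tags were level with it. Over 96 windows with brain the medians were 18.6 nt for liver and -6.47 nt for kidney. Over 120 windows with ovary they were 9.70 and -7.36 nt. Over 166 windows with spleen they were -51.0 and -103 nt, so spleen tags lay toward the 3′ side of both. Spleen was not set against lung, brain or ovary. Each of these is 1 library, and the comparisons share the liver and kidney libraries.

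First bases and the AATAAA hexamer differed among the whole libraries too. T was the first base of 42.5% of distinct ends in liver, 31.7% in kidney, 33.7% in lung, 33.4% in ovary, 30.8% in brain and 36.9% in spleen. The hexamer was present in 7.34% of ends in liver, 2.33% in kidney, 5.43% in lung, 4.12% in ovary, 4.54% in brain and 30.1% in spleen. Kidney had the lowest share of the 6 libraries, and spleen, whose tags lay toward the 3′ side of those of liver and kidney, the highest.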
